A study of Mus musculus with 3 samples.

Results

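Il12b-expressing macrophages were the cells of mouse mammary tumours in which at least 1 transcript molecule (unique molecular identifier, UMI) of Il12b was counted. They were chosen by their Il12b UMI count alone and numbered 599 of 9749 cells, 39 of 663 in mouse 1, 225 of 2108 in mouse 2 and 335 of 6978 in mouse 3. They are called Il12b+ cells, and the other 9150 cells of the same libraries are called Il12b- cells. A second comparison group, the Il12b- cells with at least 1 Il1a UMI (Il12b- Il1a+ cells), held 5157 cells. Because the rule used Il12b, and in the second group Il1a, the levels of these genes in the groups they formed are a description and carry no test.

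The study profiled macrophages of 3 mammary adenocarcinomas, 1 from each of 3 mice of the strain FVB/N-Tg(MMTVPyVT)634Mul/J, at a tumour volume of 750 mm3. In this strain the mouse mammary tumour virus promoter drives polyoma middle T antigen in mammary epithelium, so all 3 animals carried the oncogene, and mammary gland without tumour was not analysed here. Collagenase and DNase at 37 °C released the cells. The sort kept cells positive for CD45, CD11b and F4/80 and negative for Ly6G, and the libraries were made with the 10x 3' v3 chemistry. Barcodes with fewer than 500 detected genes or more than 15% mitochondrial UMIs were left out, which removed 1224 of 10973. Il12b+ cells were more deeply sequenced than Il12b- cells in each mouse, with median totals of 19320 against 14816 UMIs in mouse 1, 20451 against 13089 in mouse 2 and 11559 against 9227 in mouse 3. Median mitochondrial shares were 5.15% against 4.60%, 4.74% against 4.63% and 4.92% against 4.62% in the same order of mice. Mice 2 and 3 shared 8 cell barcodes, 1 of them an Il12b+ cell, and no other pair of libraries shared any.

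Il12b encodes the p40 chain that is shared by interleukin 12, in which it pairs with the p35 chain encoded by Il12a, and by interleukin 23, in which it pairs with the p19 chain encoded by Il23a. Both cytokines are made by activated macrophages and dendritic cells, and act on T cells and natural killer cells, interleukin 12 mainly through STAT4 and interleukin 23 mainly through STAT3. Induction of Il12b is known to depend on NF-kB proteins, c-Rel among them, and dendritic cells that mature and leave for lymph nodes carry both Il12b and the homing receptor Ccr7.

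Il12b lies on the plus strand of chromosome 11, from 44400063 to 44414033 in mm10 (GRCm38). The 250 bases before the transcription start are shown for Il12b, which defined the cells, and for Il2ra and Cxcl1, both higher in Il12b+ cells and both with a match to the NF-kB motif. The sequences are from RefSeq, GRCm38.p6, all on the plus strand, at chr11:44399813-44400062 for Il12b, chr2:11642542-11642791 for Il2ra and chr5:90890995-90891244 for Cxcl1. Capitals mark the motif matches.
Il12b: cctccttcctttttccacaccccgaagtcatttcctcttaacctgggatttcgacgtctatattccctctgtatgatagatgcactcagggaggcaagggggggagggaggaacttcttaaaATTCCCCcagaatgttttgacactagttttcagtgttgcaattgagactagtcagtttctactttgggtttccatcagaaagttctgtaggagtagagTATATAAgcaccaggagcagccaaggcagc
Il2ra: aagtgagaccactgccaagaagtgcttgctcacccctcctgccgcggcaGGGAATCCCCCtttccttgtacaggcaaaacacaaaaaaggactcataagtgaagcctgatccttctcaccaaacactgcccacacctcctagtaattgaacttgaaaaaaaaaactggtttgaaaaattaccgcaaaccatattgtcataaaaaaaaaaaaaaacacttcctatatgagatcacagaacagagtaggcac
Cxcl1: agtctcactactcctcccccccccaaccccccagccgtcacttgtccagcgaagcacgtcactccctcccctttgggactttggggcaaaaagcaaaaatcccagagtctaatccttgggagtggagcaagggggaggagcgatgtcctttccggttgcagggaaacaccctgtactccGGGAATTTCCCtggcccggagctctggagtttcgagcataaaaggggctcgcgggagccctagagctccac
The Il12b window held ATTCCCC, the reverse complement of the short Rel motif GGGGAAT, from -128 to -122 relative to the start, and TATATAA from -30 to -24. On both strands, GGGGAAT was found in 2.94% and TATATAA in 3.26% of 27025 mouse promoter windows of the same length. The short motif was taken from textbook knowledge of the Il12b promoter, so its match there is no finding. The longer NF-kB consensus, which overlaps the short motif in part, was found in 7.01% of all windows and in 7 of the 35 windows available for the 46 genes higher in Il12b+ cells in either comparison described below (20%). These 7 were Cxcl1, Il2ra, Pik3r1, Rel, Sdc4, Sod2 and Tnfaip2. The Il2ra and Cxcl1 windows each held 2 overlapping matches, from -201 to -191 and from -71 to -61. Il12b itself had no match to the longer consensus in this window. Of the same 35 windows, 4 held the C/EBP motif TTGCNNAA (9.55% of all windows), 2 the AP-1 motif TGANTCA (6.87%) and 1 the interferon-stimulated response element (3.04%).

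Few cells carried most of the Il12b message. Of the Il12b+ cells, 188 had 1 Il12b UMI, 146 had 2 to 4, and 265 (44.2%) had 5 or more. The 265 cells held 91.4% of the 6742 Il12b UMIs, and the highest count in a cell was 327, in mouse 2. Summed over Il12b+ cells, Il12b reached 593, 620 and 353 CPM (UMIs scaled to a common library total) in mice 1, 2 and 3.

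**Figure D1:**
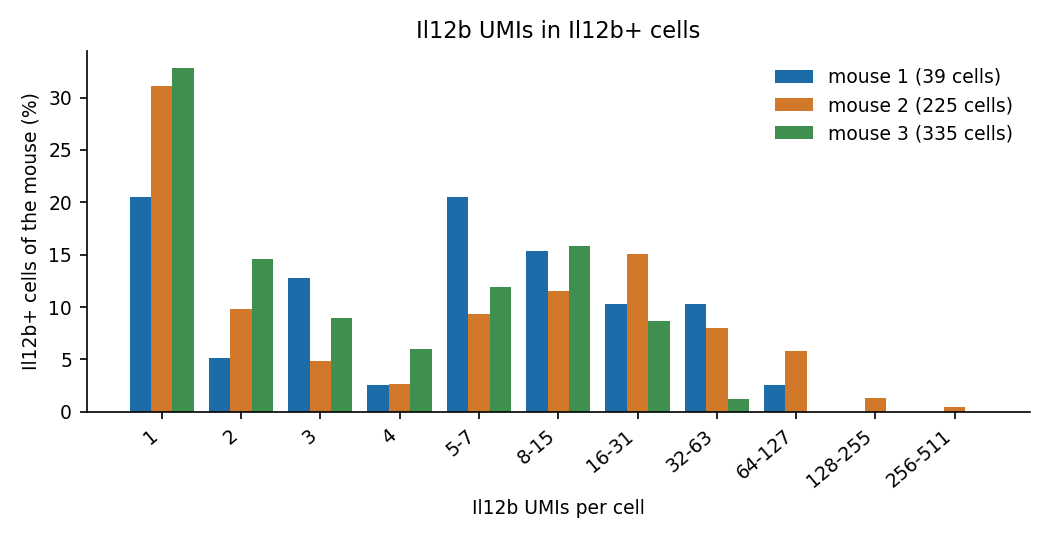
Share of the Il12b+ cells of each mouse (y axis, percent) by the number of Il12b UMIs in the cell (x axis, in classes of growing width). Cells with 1 UMI were the largest single class in mice 2 and 3 (31.1% and 32.8% of Il12b+ cells), and counts of 64 or more occurred in mice 1 and 2.

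Il12b+ cells made up 5.88% of cells in mouse 1 (exact Clopper-Pearson 95% interval 4.22% to 7.95%), 10.7% in mouse 2 (9.39% to 12.1%) and 4.80% in mouse 3 (4.31% to 5.33%), a mean of 7.12% ± 3.13 (SD, n = 3). The intervals cover counting error only. With every cell thinned to 2000 UMIs, which left out 419 shallower cells, the shares were 3.24%, 5.05% and 2.09%, a mean of 3.46% ± 1.49. Mouse 2 had the largest share with and without thinning. As a check on free RNA, 43 cells with UMIs of at least 2 of Epcam, Krt8, Krt18 and Krt19 and none of Ptprc were taken as epithelial. Il12b was counted in 2 of these 43, and in 1 of 31 after thinning, at median totals of 2888, 2874.5 and 4757 UMIs in mice 1, 2 and 3. After thinning, 261 of all 9330 cells had an Il12b UMI. As means over mice, the thinned shares were 3.46% ± 1.49 over all cells and 1.59% ± 2.75 in epithelial cells. With 1 positive cell of 31, this check cannot place the share over all cells above or below the epithelial background. None of the 43 had a Ccr7 or Cd207 UMI.

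Nearly all Il12b+ cells had macrophage transcripts. C1qa, a complement subunit gene typical of tissue macrophages, was counted in 595 of 599 cells, Csf1r, the receptor for colony-stimulating factor 1, in 586, Lyz2 (lysozyme) in 596, and Adgre1, which encodes the F4/80 antigen of the sort, in 534. In the 43 epithelial cells, C1qa and Lyz2 were each counted in 31, Csf1r in 9 and Adgre1 in 8, so detection of C1qa or Lyz2 alone is weak evidence for a cell's type. C1qa levels were 6247, 6251 and 7334 CPM in Il12b+ cells of mice 1, 2 and 3, against 5489, 6616 and 7260 CPM in Il12b- cells, overlapping between groups. Adgre1 was at 285, 251 and 281 CPM in Il12b+ cells, against 343, 275 and 288 CPM in Il12b- cells (log2 fold change -0.07 ± 0.07 SE, adjusted p = 0.78, edgeR quasi-likelihood test). Ptprc, which encodes CD45, differed by 0.04 ± 0.06 (adjusted p = 0.851) and Itgam, which encodes CD11b, by -0.00 ± 0.08 (adjusted p = 0.992). Of the 12 macrophage lineage genes fixed for this check, all were tested and 0 were called, with a median log2 fold change of -0.03. Of the other 2 genes named as markers of these cells, Il1a was counted in 490 and Cd207 in 199 of the 599.

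In the comparison with all Il12b- cells, 58 of 10803 genes tested passed an adjusted p of 0.05 (0.537%). Of these, 45 were higher in Il12b+ cells (0.417%) and 13 were lower (0.12%). The median log2 fold change over all genes tested was -0.00, and 48.9% of genes lay above 0. Against Il12b- Il1a+ cells, 21 of 10531 genes passed (0.199%), 19 of them higher (0.18%) and 2 lower (0.019%). The sums of both groups came from the same 3 mice, with the mouse as a block. Without mouse 3, which gave the most cells, 0 genes passed in either comparison (349 and 296 genes had an unadjusted p below 0.05 in edgeR), and without mouse 1, which had 39 Il12b+ cells, 413 and 218 passed. Without mouse 2, 27 and 15 genes passed. All 58 and all 21 genes kept their direction in each of these fits. A fit without the mouse term called 0 genes in both comparisons, with 258 and 140 genes at an unadjusted p below 0.05, and DESeq2's Wald test with the mouse term called 110 and 75. Of the 58 and 21 genes, DESeq2 called 34 and 5 and gave no adjusted p for the other 24 and 16. Without mouse 2, 13 of the 58 and 6 of the 21 were still called. The comparisons share the Il12b+ cells, so the values from them are set side by side and are not independent of each other.

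Of the p40 partners, Il12a was not detected in any cell, and Il23a was not called. Whether the libraries could capture Il12a was not tested. Il12a, the p35 partner, had 0 UMIs in all 9749 cells, and a count of 0 in 599 Il12b+ cells of mice 1, 2 and 3 allows shares of up to 7.69%, 1.33% and 0.896% of cells with a UMI. Il23a, the p19 partner, was at 1.12, 17.5 and 18.3 CPM in Il12b+ cells of mice 1, 2 and 3, against 8.48, 5.26 and 2.13 CPM in Il12b- cells. It was higher in Il12b+ cells of mice 2 and 3 and lower in those of mouse 1, and the groups overlapped. The log2 fold change was 2.06 ± 0.80 SE (adjusted p = 0.565), and 1.66 ± 0.81 against Il12b- Il1a+ cells (adjusted p = 0.715). Il23a was counted in 47 Il12b+ cells, 33 of which had 5 or more Il12b UMIs (70.2%) and 46 of which also had an Il1a UMI (97.9%). Of the 552 Il12b+ cells without Il23a, 232 had 5 or more Il12b UMIs (42.0%) and 444 had an Il1a UMI (80.4%). The depths of cells with and without Il23a were not compared. The share of cells with an Il23a UMI was 6.65% ± 4.29 in Il12b+ cells and 1.69% ± 0.805 in Il12b- cells (SD, n = 3 mice), and 1.16% ± 1.07 and 0.409% ± 0.178 after thinning.

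Among other genes of the interleukin 12 family and signalling list, only Stat4 was called, against Il12b- cells. Ebi3, the p40-like chain of interleukin 27, was at 59.4, 33.0 and 45.7 CPM in Il12b+ cells, against 33.8, 28.3 and 28.4 CPM in Il12b- cells, higher in 3 of 3 mice without passing the test (0.60 ± 0.12 SE, adjusted p = 0.0677). The other interleukin 27 chain, Il27, had 7 UMIs in Il12b+ cells, and the receptor genes Il12rb1 and Il12rb2 had 6 and 10, too few to be tested. Of the 15 genes of the interleukin 12 family and signalling list, 9 were tested and 1, Stat4, was called. Stat4, the transcription factor activated by interleukin 12, was at 12.3, 21.6 and 16.5 CPM in Il12b+ cells, against 8.19, 13.8 and 9.09 CPM in Il12b- cells. It rose by 0.79 ± 0.13 SE on the log2 scale (adjusted p = 0.033), and by 0.70 ± 0.13 against Il12b- Il1a+ cells without a call there.

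Ccr7, the chemokine receptor that guides mature dendritic cells to lymph nodes, lies on the minus strand of chromosome 11, from 99144196 to 99155077, and had the smallest p of all genes tested in both comparisons. It was at 69.4, 38.4 and 25.4 CPM in Il12b+ cells of mice 1, 2 and 3, against 17.2, 7.32 and 6.40 CPM in Il12b- cells. The groups did not overlap, and the lowest Il12b+ value, of mouse 3, lay above the highest Il12b- value, of mouse 1. The log2 fold change was 2.22 ± 0.12 SE (adjusted p = 3.61e-05), and 2.08 ± 0.12 against Il12b- Il1a+ cells (20.3, 7.92 and 6.68 CPM, adjusted p = 1.91e-05). Ccr7 was counted in 19.1% ± 6.55 of Il12b+ cells and in 3.30% ± 0.615 of Il12b- cells (SD, n = 3 mice), and in 5.15% ± 0.109 and 1.07% ± 0.157 after thinning. Most Il12b+ cells thus had no Ccr7 UMI, and the 95 cells that had one were deeper than the other 504, with medians of 18611 and 14334.5 UMIs. Without mouse 3 the difference was 2.30 (adjusted p = 0.257), without mouse 2 it was 2.08 (adjusted p = 0.0173) and without mouse 1 it was 2.26 (adjusted p = 6.6e-14), and with no mouse term in the model it was not called. With the Il12b+ cells also restricted to those with an Il1a UMI, Ccr7 differed from Il12b- Il1a+ cells by 1.70 and was not called (adjusted p = 0.638).

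Among the Il12b+ cells with Ccr7 UMIs, Csf1r and Adgre1 were common and Fscn1 and Flt3 were rare. Of the 95, all had a C1qa UMI, 88 had Adgre1, 93 had Csf1r and 90 had Itgax. Fscn1, the actin-bundling gene of mature dendritic cells, was in 1 of the 95 and 4 of the 504 without Ccr7. Flt3, the growth factor receptor of dendritic cells and their precursors, was in 1 and 2. Other dendritic cell genes were more frequent in the 95, at the depths given above. Zbtb46 was in 8 of 95 (8.42%) against 12 of 504 (2.38%), and Il4i1 in 20 (21.1%) against 60 (11.9%). One cell of mouse 1 stood apart, with 47 Fscn1, 30 Ccr7, 3 Il12b and 1 C1qa UMIs among 6886. It held 30 of the 62 Ccr7 UMIs and 47 of the 50 Fscn1 UMIs of that mouse's Il12b+ cells. In mice 2 and 3, Il12b+ cells had 1 and 0 Fscn1 UMIs, beside 263 and 142 Ccr7 UMIs. Without the cells that had a UMI of Flt3, Zbtb46, Fscn1, Xcr1 or Clec9a (15.4%, 8% and 2.69% of Il12b+ cells, and 3.21%, 4.67% and 1.94% of Il12b- cells), an exclusion chosen after seeing the data, Ccr7 remained higher by 2.06 on the log2 scale (adjusted p = 0.00396), and by 1.81 against Il12b- Il1a+ cells (adjusted p = 0.0179). That exclusion lowered the calls to 28 and 7 genes. Of the 10 mature dendritic cell genes, 5 were tested and 2 rose without the exclusion, Ccr7 and Il4i1, with a median of 1.22. The summed level of the 10 was 184, 87.0 and 66.1 CPM in Il12b+ cells against 47.3, 40.5 and 33.7 CPM in Il12b- cells. The sum of mouse 1 includes the cell with 47 Fscn1 and 30 Ccr7 UMIs. Of the 10 conventional dendritic cell genes, 4 were tested and 0 were called, with a median of 0.09 and summed levels of 161, 217 and 194 CPM against 162, 206 and 192 CPM. Clec9a had 1 UMI in all Il12b+ cells together and Xcr1 had 6. Zbtb46, a transcription factor of conventional dendritic cells, differed by 1.00 ± 0.39 SE at 2.24, 2.78 and 1.075 CPM in Il12b+ cells, against 0.39, 1.58 and 0.563 CPM in Il12b- cells (adjusted p = 0.345).

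Cd207 encodes langerin, a C-type lectin known from Langerhans cells and some dendritic cells and macrophages, on the minus strand of chromosome 6 from 83671215 to 83677857. It was at 98.6, 110 and 188 CPM in Il12b+ cells of mice 1, 2 and 3, against 63.7, 99.9 and 89.5 CPM in Il12b- cells. The level was higher in 3 of 3 mice, but the groups overlapped and the test was not passed (0.69 ± 0.20 SE, adjusted p = 0.323), nor was it against Il12b- Il1a+ cells (82.4, 111 and 104 CPM, 0.44 ± 0.19, adjusted p = 0.593). Against Il12b- cells, 4 of 18 alternative settings called Cd207, with adjusted p = 0.046 for members with at least 2 Il12b UMIs (0.86), 0.0119 by DESeq2's Wald test (0.70), 0.0365 after thinning (0.97) and 0.0415 without mouse 2 (0.98). A Cd207 UMI was found in 30.7% ± 7.37 of Il12b+ cells and in 15.4% ± 4.0 of Il12b- cells (SD, n = 3), and in 12.8% ± 4.68 and 7.14% ± 1.46 after thinning. Among Il12b+ cells, Cd207 was counted in 47 of 95 cells with Ccr7 (49.5%) and in 152 of 504 without (30.2%), at the depths given above. Of the 6 genes of the Langerhans cell list, Cd207 among them, 3 were tested, 2 lay above 0 and Epcam was called lower. Their median was 0.46. Epcam was lower in summed level but not in detection, being counted in 6.26% of Il12b+ cells and 4.50% of Il12b- cells. After thinning these shares were 0.757% and 0.907%. Against Il12b- Il1a+ cells Epcam was not called (-0.32, adjusted p = 0.689). Cldn1, a tight junction gene of that list, had 0 UMIs in Il12b+ cells and was counted in 21 of 9150 Il12b- cells. At so low a share, 0 UMIs in 599 cells carries little information. Cdh1 was counted in 3.68% of Il12b+ cells and 2.05% of Il12b- cells, and in 0.101% and 0.281% after thinning. Itgax, which encodes the integrin CD11c of dendritic cells and many tissue macrophages, was at 157, 126.8 and 171 CPM in Il12b+ cells, against 90.7, 113 and 136 CPM in Il12b- cells, without passing the test (0.46 ± 0.11, adjusted p = 0.145).

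Of the cytokine genes, Tnf, Il1a and Il1b were higher in Il12b+ cells. Tnf was at 260, 304 and 178 CPM in Il12b+ cells, against 156, 225 and 108 CPM in Il12b- cells, so that each mouse was higher in Il12b+ cells while the ranges overlapped between mice. The log2 fold change was 0.69 ± 0.08 SE (adjusted p = 0.00374), and 0.43 ± 0.07 against Il12b- Il1a+ cells (adjusted p = 0.041). The call against Il12b- Il1a+ cells ended in 9 alternative settings, among them Il1a+ members only (adjusted p = 0.137), thinning (0.198), at most 8% mitochondrial UMIs (0.16), without mouse 2 (0.112) and without mouse 3 (0.999). Il1a, the alarmin that chose the second comparison group, was at 887, 804 and 338 CPM in Il12b+ cells, against 587, 607 and 249 CPM in Il12b- cells. It rose by 0.55 ± 0.07 SE (adjusted p = 0.00589), and was counted in 83.6% ± 7.62 of Il12b+ cells and 60.1% ± 8.19 of Il12b- cells, and in 56.2% ± 14.4 and 34.3% ± 8.45 after thinning. Il1b was at 6642, 6745 and 5256 CPM in Il12b+ cells, against 5439, 5714 and 3827 CPM in Il12b- cells, and rose by 0.40 ± 0.06 (adjusted p = 0.033). Against Il12b- Il1a+ cells its difference of 0.23 ± 0.06 was not called (adjusted p = 0.224). Of the 15 genes of the interleukin 1 and inflammasome list, 13 were tested and 4 rose, Il1a, Il1b, Nlrp3 and Il1r2, with a median of 0.07 over the tested members. Nlrp3, the inflammasome sensor, rose by 0.37 ± 0.06 (adjusted p = 0.0371), and its difference of 0.15 ± 0.06 against Il12b- Il1a+ cells was not called (adjusted p = 0.462). Il1r2, the decoy receptor of interleukin 1, was at 119, 44.8 and 49.3 CPM in Il12b+ cells, against 48.8, 28.3 and 22.8 CPM in Il12b- cells, and rose by 1.06 ± 0.12 (adjusted p = 0.00374) and by 1.02 ± 0.13 against Il12b- Il1a+ cells (adjusted p = 0.0229).

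Il6 and Il10 were not called. Il6 was at 1.12, 9.93 and 4.12 CPM in Il12b+ cells, against 3.997, 14.1 and 3.45 CPM in Il12b- cells (-0.25 ± 0.22 SE, adjusted p = 0.746). Il10, which encodes an inhibitor of interleukin 12 production, was at 73.9, 132 and 96.4 CPM in Il12b+ cells, against 74.1, 128.4 and 67.0 CPM in Il12b- cells (0.28 ± 0.10, adjusted p = 0.338). Both genes overlapped between the groups.

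**Figure D2:**
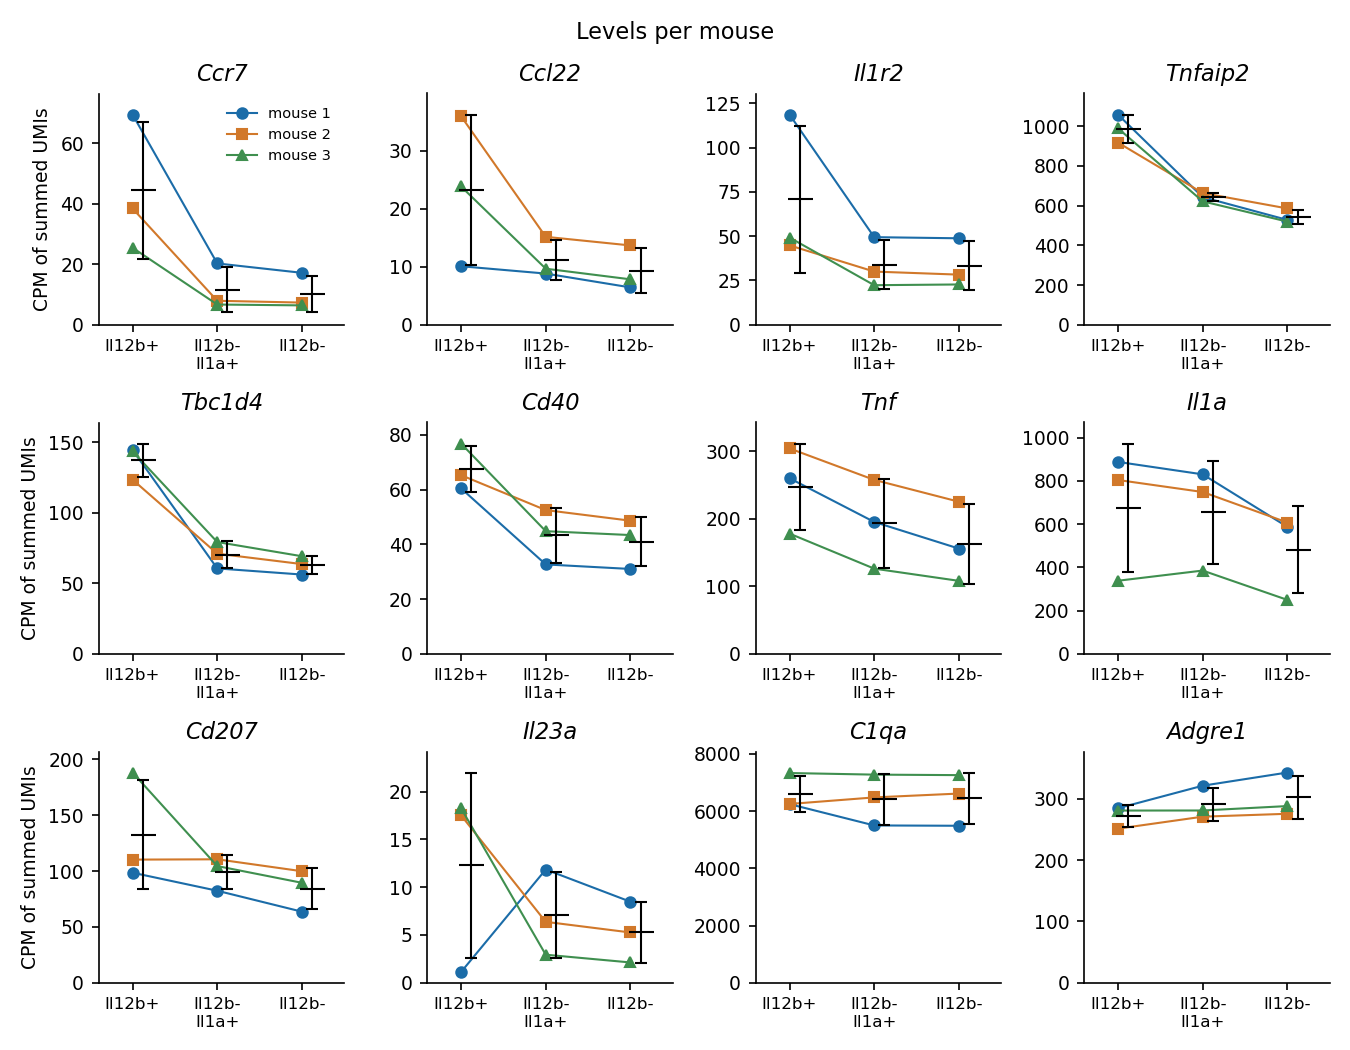
Levels of 12 genes in CPM of summed UMIs (y axes, from 0) in Il12b+, Il12b- Il1a+ and Il12b- cells (x axes) of each mouse, with lines joining a mouse and black bars for the mean ± SD over 3 mice. Ccr7, Tbc1d4, Tnfaip2 and Cd40 were higher in Il12b+ cells of each mouse without overlap with Il12b- cells. Il23a moved in opposite directions in mouse 1 and in mice 2 and 3, and C1qa and Adgre1 overlapped.

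Genes of NF-kB signalling lay above 0 as a group. All 18 genes of the list of NF-kB subunits and feedback inhibitors were tested, 18 had a positive log2 fold change, with a median of 0.34, and 2 were called. Over all genes tested, 48.9% lay above 0 and 0.417% were called higher. The list was chosen with earlier results of these data known, so it is no independent support. Nfkbiz, an inducible nuclear regulator of NF-kB target genes, was at 469, 437 and 342 CPM in Il12b+ cells, against 312, 324 and 215 CPM in Il12b- cells, and rose by 0.63 ± 0.07 SE (adjusted p = 0.00303). Rel, which encodes the c-Rel subunit known to drive Il12b, was at 296, 644 and 463 CPM, against 233, 541 and 364 CPM, and rose by 0.38 ± 0.06 (adjusted p = 0.0355). Mice differed more in Rel than the groups did, and the ranges overlapped. Against Il12b- Il1a+ cells, 17 of the 18 lay above 0 with a median of 0.22, where 49.3% of all genes tested lay above 0. Nfkbiz was called there (0.45 ± 0.07, adjusted p = 0.0247) and Rel was not (0.24 ± 0.06).

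Genes of exchange with T cells that rose were Ccl22, Cd40 and Tnfsf9. Ccl22, a chemokine that attracts regulatory and type 2 helper T cells through Ccr4, was at 10.1, 35.9 and 23.8 CPM in Il12b+ cells, against 6.43, 13.7 and 7.83 CPM in Il12b- cells, and rose by 1.48 ± 0.14 SE (adjusted p = 0.00142) and by 1.22 ± 0.14 against Il12b- Il1a+ cells (adjusted p = 0.00485). Each mouse was higher in Il12b+ cells, and the Il12b+ value of mouse 1 lay within the Il12b- range. Ccl22 was not called after thinning (adjusted p = 0.0766 against Il12b- cells and 0.236 against Il12b- Il1a+ cells), without mouse 2 (0.0669 and 0.191), without mouse 3 (0.979 and 0.999) or, in the second comparison, with Il1a+ members only (0.0781). Cd40, the receptor through which T cells license interleukin 12 production, was at 60.5, 65.3 and 76.8 CPM, against 31, 48.6 and 43.4 CPM, with no overlap, and rose by 0.76 ± 0.11 (adjusted p = 0.0176), without a call against Il12b- Il1a+ cells (0.66 ± 0.11, adjusted p = 0.0569). Tnfsf9, the 4-1BB ligand, was at 42.6, 38.7 and 67.0 CPM, against 34.1, 23.6 and 32.04 CPM, and rose by 0.85 ± 0.12 (adjusted p = 0.0156). Of the 23 T cell costimulation and checkpoint genes, 18 were tested and these receptor and ligand genes, Cd40 and Tnfsf9, were the 2 called, with a median of 0.22. Of 23 chemokine genes, 21 were tested and 2 rose, Ccl22 and Cxcl1, with a median of 0.00. Cxcl1, a neutrophil attractant, was at 836, 1012 and 735 CPM in Il12b+ cells, against 684, 835 and 482 CPM in Il12b- cells, and rose by 0.47 ± 0.08 (adjusted p = 0.033), while its difference of 0.23 ± 0.07 against Il12b- Il1a+ cells was not called (adjusted p = 0.264). None of the 12 MHC class II genes was called (median 0.12, 10 above 0), nor were any of the 13 MHC class I genes (median 0.08).

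Among genes outside the function lists, Tbc1d4 and Tnfaip2 separated the groups without overlap. Tbc1d4, a Rab GTPase-activating protein of glucose transporter traffic (chromosome 14, 101442360 to 101609191, minus strand), was at 144, 123 and 143 CPM in Il12b+ cells, against 56.1, 63.6 and 69.1 CPM in Il12b- cells, and rose by 1.17 ± 0.09 SE (adjusted p = 0.000597) and by 0.99 ± 0.09 against Il12b- Il1a+ cells (adjusted p = 0.00168). Tnfaip2, a TNF-inducible gene (chromosome 12, 111442469 to 111455018, plus strand), was at 1057, 917 and 988 CPM, against 527, 585 and 519 CPM, and rose by 0.93 ± 0.08 (adjusted p = 0.000693) and by 0.67 ± 0.07 in the second comparison (adjusted p = 0.00168). Procr, the endothelial protein C receptor, rose by 1.01 ± 0.09 (adjusted p = 0.000693), Gpr84, a receptor for medium-chain fatty acids, by 0.89 ± 0.12 (adjusted p = 0.0105), and Klrb1b, a C-type lectin-like receptor, by 1.04 ± 0.12 (adjusted p = 0.00374). St8sia4, a polysialyltransferase that modifies Ccr7 and other surface proteins, rose by 0.80 ± 0.08 (adjusted p = 0.00142) and by 0.73 ± 0.08 in the second comparison (adjusted p = 0.00169). Dcstamp and Ocstamp, the fusion proteins of osteoclasts, were both higher against Il12b- cells, by 0.68 ± 0.07 (adjusted p = 0.00303) and 0.82 ± 0.13 (adjusted p = 0.033). Against Il12b- Il1a+ cells Dcstamp was called (0.45 ± 0.06, adjusted p = 0.0182) and Ocstamp was not (0.61 ± 0.13, adjusted p = 0.145). Gpr84 was not called there either (0.61 ± 0.11, adjusted p = 0.0528).

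Sod2, the mitochondrial superoxide dismutase, rose by 0.44 ± 0.08 SE (adjusted p = 0.0409), and Pde4b, a phosphodiesterase that lowers cyclic AMP, by 0.40 ± 0.07 (adjusted p = 0.0355), both against Il12b- cells. Neither was called against Il12b- Il1a+ cells, with differences of 0.32 and 0.25 (adjusted p = 0.217 for each). Cd72, an inhibitory lectin, was called against Il12b- Il1a+ cells (0.49 ± 0.08, adjusted p = 0.041) and not against Il12b- cells (0.36 ± 0.07, adjusted p = 0.0588). The rule for named genes passes over called genes under 20 CPM, and Il2ra, Plat and Il4i1 are named after their values were seen. Il2ra, the interleukin 2 receptor alpha chain, was at 22.4, 7.60 and 7.35 CPM in Il12b+ cells, against 1.66, 2.33 and 1.48 CPM in Il12b- cells. In mouse 1 it rested on 20 UMIs in 5 cells, 11 of them in 1 cell with 69255 UMIs. Plat, tissue plasminogen activator, was at 20.2, 6.28 and 7.88 CPM, against 1.95, 2.39 and 2.58 CPM, and 13 of the 18 UMIs of mouse 1 lay in 1 cell. Il4i1, an amino acid oxidase of activated dendritic cells and macrophages, was at 8.96, 11.1 and 11.6 CPM, against 4.87, 5.38 and 4.59 CPM, and in mouse 1 it rested on 8 UMIs in 3 cells, 5 of them in 1 cell.

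**Figure D3:**
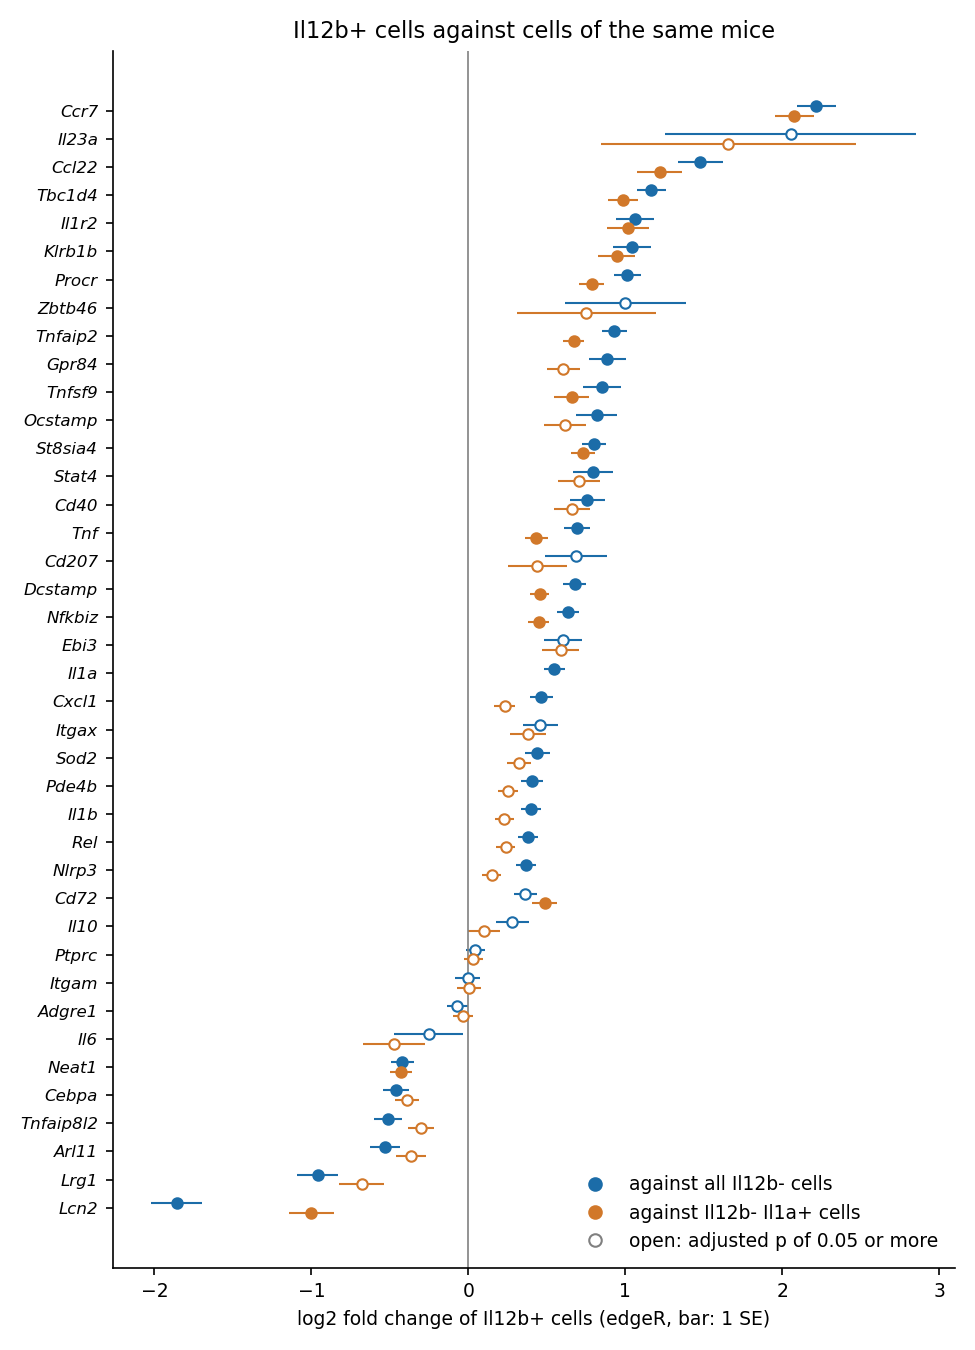
log2 fold change ± 1 SE (x axis) of Il12b+ cells for the genes named by rule (y axis), against all Il12b- cells in blue and against Il12b- Il1a+ cells in orange. Filled points passed an adjusted p of 0.05. Ccr7 lies at 2.22 and 2.08, the widest bars belong to Il23a, and the lowest gene is Lcn2.

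Genes lower in Il12b+ cells included a macrophage transcription factor and transcripts of tumour epithelium. Cebpa, a transcription factor of myeloid differentiation, was at 87.4, 125 and 127.4 CPM in Il12b+ cells, against 154, 161 and 182 CPM in Il12b- cells, with no overlap, and fell by 0.46 on the log2 scale (SE 0.08, adjusted p = 0.0442). The long noncoding RNA Neat1 was at 356, 419 and 361 CPM, against 581, 535 and 494 CPM, and fell by 0.42 (SE 0.07, adjusted p = 0.0371). Tnfaip8l2, an inhibitor of innate immune signalling, fell by 0.51 (SE 0.09, adjusted p = 0.0355), and Arl11, a small GTPase, by 0.53 (SE 0.10, adjusted p = 0.0409). Lcn2, which encodes the iron-binding lipocalin 2, was at 4.48, 11.1 and 25.8 CPM, against 21.1, 56.6 and 74.8 CPM, and fell by 1.86 (SE 0.16, adjusted p = 0.00142). Lcn2 was also a leading gene of cluster 15, the cluster led by the milk protein genes Csn3 and Wfdc18, where 2 of 62 cells were Il12b+. Csn1s1 (-3.89), Csn2 (-3.16) and Epcam (-1.06) were called lower as well, and were also leading genes of cluster 15. Lbp (-2.35), Saa2 (-1.94) and Plet1 (-1.43) were called lower too. The genes of these last sentences are named after their values were seen. Lrg1, a secreted glycoprotein, fell by 0.96 (SE 0.13, adjusted p = 0.0131). Of the 7 mammary epithelium markers, 6 were tested and 2, Epcam and Krt8, were lower, with a median of -1.03, and their summed level was 42.6, 84.6 and 51.4 CPM in Il12b+ cells against 90.8, 251 and 160 CPM in Il12b- cells. The part of epithelial RNA in the genes that were lower was not tested. Against Il12b- Il1a+ cells, with 27.3, 79.3 and 83.4 CPM of these markers, Lcn2 (-1.001) and Neat1 (-0.43) were the 2 genes lower. Csn2 (-0.57, adjusted p = 0.773), Epcam (-0.32, adjusted p = 0.689) and Krt8 (-0.50, adjusted p = 0.538) were not called there.

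None of the resident-type, monocyte, lipid-associated, interferon-stimulated or cell cycle genes tested was called, whereas inflammatory genes such as Tnf, Il1a and Il1b were, as given above. Of the 12 resident-type genes, among them Lyve1, Cd163 and Folr2, 1 lay above 0 with a median of -0.28. Of the 6 monocyte genes tested, 0 lay above 0 with a median of -0.87, and their summed level was 112, 175 and 105 CPM in Il12b+ cells against 328, 193 and 149 CPM in Il12b- cells. The erythroid genes summed to 3.36, 1.61 and 1.79 CPM in Il12b+ cells against 4.09, 79.5 and 3.58 CPM in Il12b- cells, with the widest gap in mouse 2, and 2 of 4 genes were tested and 0 called. Of the neutrophil, T cell, B cell, fibroblast and endothelium genes, 0 were called, and none of the natural killer and mast cell genes was high enough to be tested. Of 3 plasmacytoid dendritic cell genes tested, 1, the lectin Siglech, rose. The part of other cell types in the results was not tested beyond the exclusions given. The 17 genes of the dissociation stress list, which are known to respond to enzymes and warmth, had a median of -0.14 with 3 above 0. The 10 lipid-associated genes had a median of -0.10, the 16 interferon-stimulated genes 0.13 and the 14 cell cycle genes 0.17. Cells with a UMI of any of 11 genes of other lineages, Ccr7 among them, made up 33.3%, 29.3% and 23.6% of Il12b+ cells, against 13.1%, 13.9% and 11.1% of Il12b- cells. Without these cells, 18 and 12 genes passed in the 2 comparisons, and Tbc1d4 was still higher by 1.104 (adjusted p = 0.0137).

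Il12b+ cells were spread over 15 of 16 clusters that were formed without Il12b, Il1a and Cd207. The clusters are left with numbers. Cluster 7, led by Il1r2, Gpr84 and Procr, held 131 of the 599 (21.9%), and 131 of its 693 cells were Il12b+ (18.9%). By mouse, 23.1%, 23.2% and 17.2% of cluster 7 had an Il12b UMI, and 13.5%, 14.1% and 9.66% after thinning. Cluster 1, led by Gm48065, Mir155hg and Bcl2a1a, held 108 more Il12b+ cells (9.94% of its cells, 6.75% after thinning). Cluster 4, led by Hbb-bs, Cd209f and Ccl8, had 9.45% Il12b+ cells at a median of 26035 UMIs, but 2.81% after thinning. Few Il12b+ cells lay in cluster 9, led by Cd209d, Lyve1 and Cd209f (3 of 481), and in cluster 8, whose leading genes include Arl11 and Tnfaip8l2 (3 of 672). The leading genes of clusters 1 and 7 include several of the genes called above, so cluster shares and calls are not separate evidence.

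**Figure D4:**
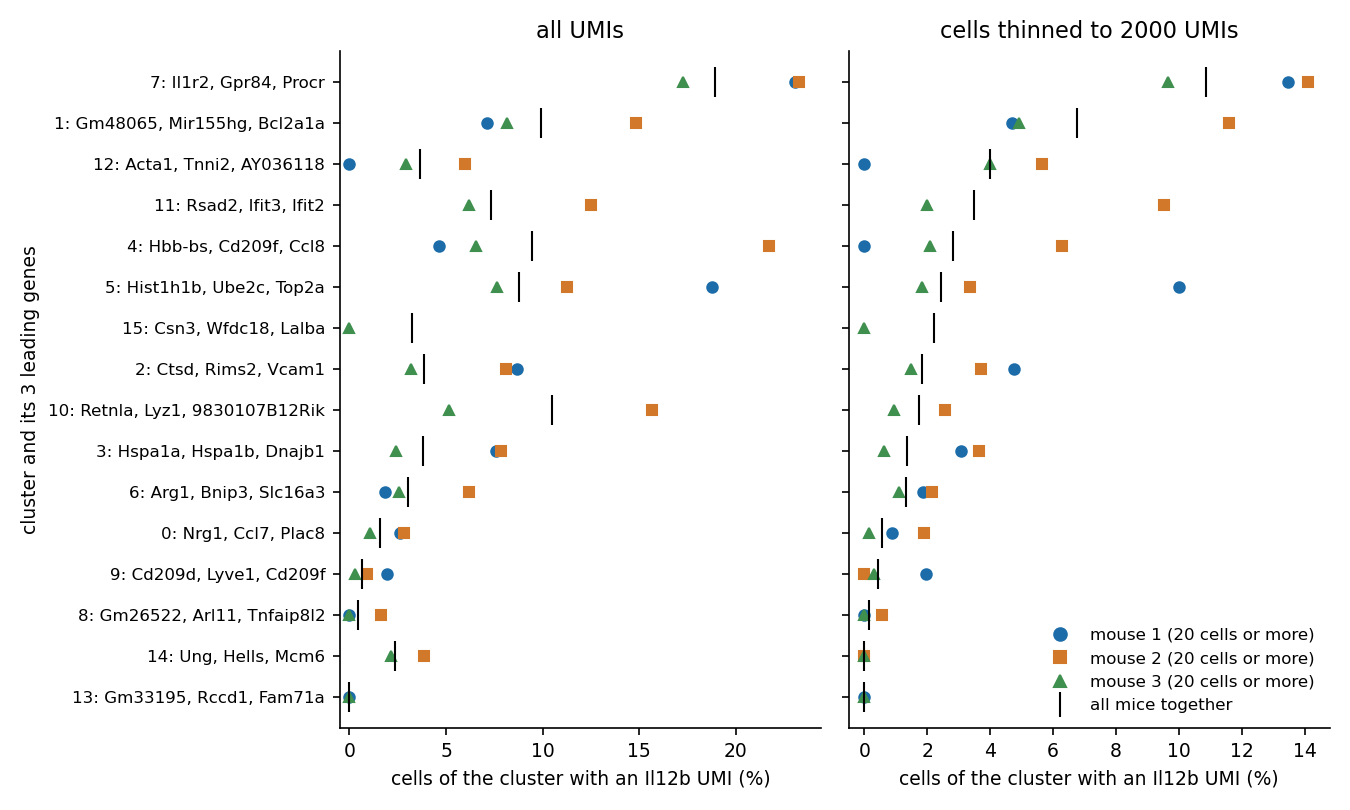
Percent of the cells of each cluster with an Il12b UMI (x axes), with all UMIs on the left and after thinning to 2000 UMIs on the right, for clusters named by number and 3 leading genes (y axis). Coloured points are mice with at least 20 cells in the cluster and black ticks all mice together, which put cluster 7 first at 18.9% and 10.9%.

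Within cluster 7 alone, where 12, 33 and 86 Il12b+ cells stood against 40, 109 and 413 Il12b- cells, the differences were smaller. Ccr7 differed by 1.13 there (adjusted p = 0.517), Ccl22 by 0.20 (adjusted p = 0.904), Tbc1d4 by 0.31 (adjusted p = 0.499) and Tnf by 0.24 (adjusted p = 0.401). Tnfaip2 was still called, at 0.48 (adjusted p = 7.08e-05). Of the 58 genes, 47 were tested in cluster 7, all 47 with the same sign, and 8 were called.

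Levels of other genes by the number of Il12b UMIs are a description, since the classes come from the gene that formed the groups. Tnf was at 163 ± 58.9 CPM in cells with 0 Il12b UMIs, 162 ± 26.3 with 1, 274 ± 111 with 2 to 4 and 286 ± 73.6 with 5 or more (SD, n = 3 mice). By mouse, cells just inside the rule, with 1 UMI, had 145, 193 and 150 CPM of Tnf, against 156, 225 and 108 CPM just outside it, lower in mice 1 and 2 and higher in mouse 3. Ccr7 was at 10.3 ± 5.96, 14.6 ± 7.17, 75.4 ± 93.5 and 47.9 ± 15.8 CPM in the same classes, and the value of mouse 1 with 2 to 4 UMIs, 183 CPM, held the single Fscn1-high cell. Il1a was at 481 ± 201, 583 ± 298, 646 ± 347 and 754 ± 289 CPM, and C1qa at 6455 ± 896, 6026 ± 1328, 6778 ± 626 and 6758 ± 324 CPM. For Il1a the SD between mice exceeded each step between neighbouring classes, though it does not measure the spread of a step within a mouse. In the same classes Il1a was at 587, 901, 946 and 863 CPM in mouse 1 and 607, 540, 726 and 972 CPM in mouse 2. Mouse 3 had 249, 309, 265 and 426 CPM. Each mouse was higher with 5 or more UMIs than with 0, and no step between neighbouring classes had the same direction in each mouse.

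**Figure D5:**
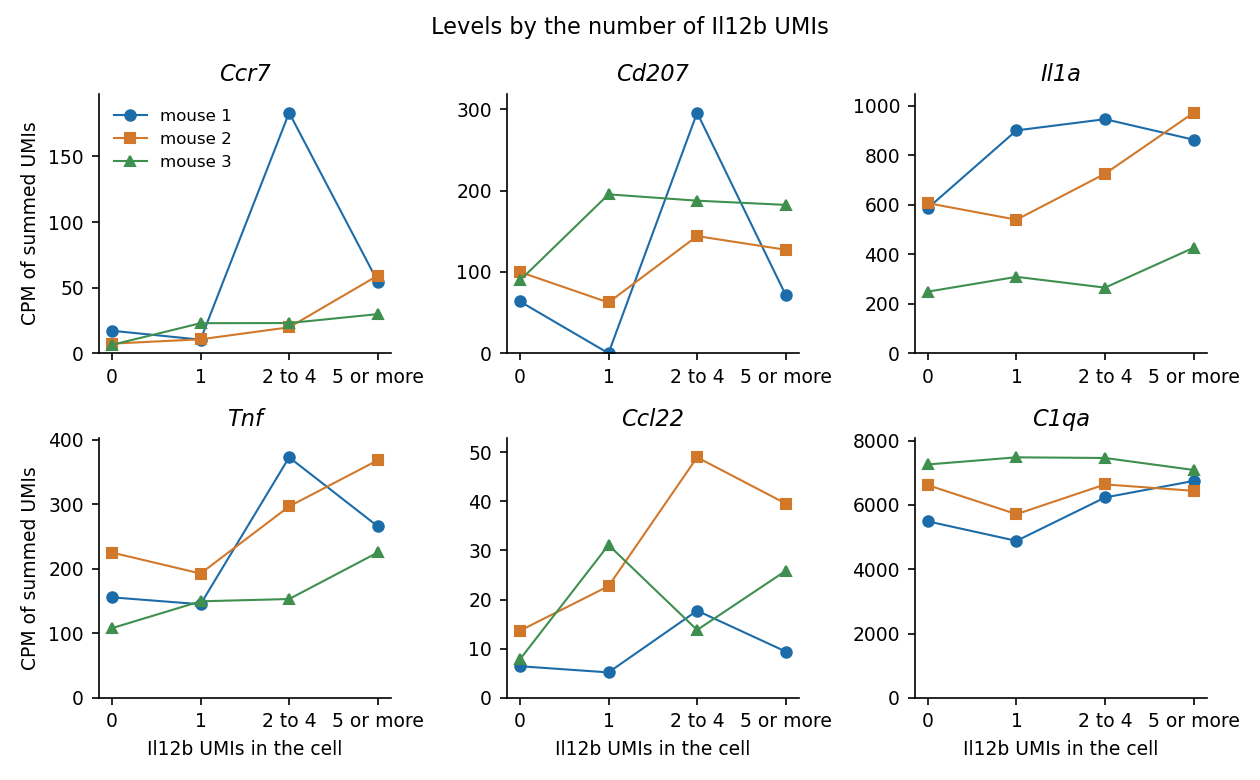
Levels of 6 genes in CPM of summed UMIs (y axes, from 0) in cells with 0, 1, 2 to 4 and 5 or more Il12b UMIs (x axes), 1 line per mouse. Ccr7 with 5 or more UMIs lies above Ccr7 with 0 UMIs in each mouse, the peak of 183 CPM in mouse 1 rests on 8 cells, and C1qa has no common direction.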

How the data were processed

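The deposited matrices of 3 libraries, 1 per mouse, hold raw UMI counts per gene and barcode, made by the authors with Cell Ranger 3.0.2 on mm10, per the submitters' processing notes and the file headers. The annotation version is not given in the sources used here. Libraries held 12454677, 41097369 and 86178419 UMIs over 31053 features, and 35 symbols shared by more than 1 gene ID were kept apart. The members and gene lists (20 function lists, 16 marker lists) were chosen with earlier results of these data known.

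Counts of kept cells were summed per mouse and group, giving 6 sums per comparison. The test was that of edgeR 4.0.16 under R 4.3.3 (TMM normalization, filterByExpr, mouse as block, robust quasi-likelihood F test, 2-sided, Benjamini-Hochberg adjustment over all genes tested, threshold 0.05). The mouse pairs the sums because both come from 1 animal. Il12b, and Il1a in the second comparison, were left out of tests and library sizes. The SE is the log2 fold change divided by the square root of F. The newer quasi-likelihood estimation was chosen over the older one after both counts of calls had been seen, because it made fewer false calls when the method was tested on simulated data, where its rate still lay above the nominal level in both comparisons.

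Clusters came from scanpy 1.11.5 in Python 3.11.15 (2000 variable genes, 30 principal components, 15 neighbours, Leiden resolution 1), without Il12b, Il1a, Cd207, mitochondrial and ribosomal genes. Scrublet called 11 doublets, too few for a working caller, so no doublets were removed, and removal of 463 cells at 0.8% per 1000 barcodes was an alternative. Gene positions are from GENCODE vM21 by gene ID. Genes named are a fixed set of cytokines and markers, the 16 largest higher and 8 largest lower called genes of the lists, and, outside the lists, the 8 largest higher and 6 largest lower called genes at 20 CPM or more, with the same sign in 3 of 3 mice. With 3 mice, an exact paired test of a single value cannot go below p = 0.25, so shares carry none. Other settings tried were another normalization, DESeq2 1.42.0, other filters and cell sets, depth matching, thinning and leaving out each mouse.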

Additional observations from a re-analysis of the deposited data

Results flagged for a closer look

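Barcodes outside the cell filters also held Il12b UMIs. Of the removed barcodes, 22 of 411 (5.35%) in mouse 1 and 8 of 362 (2.21%) in mouse 2 had at least 1. Both counts exceed the 3 counts that a count of 0 allows, which any count above 3 does, and no test was made. Among the kept cells the shares were 5.88% and 10.7% in the same mice. Mouse 3 had 3 of 451 (0.665%).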

How the results depend on the processing

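The share of Il12b+ cells was 3.46% after thinning, against 7.12%, and moved by less than the spread between mice in the other settings. Against Il12b- cells, 58 genes were called, and the count was 110 with DESeq2's Wald test, 94 without the low-count filter, 145 with the older quasi-likelihood estimation (added after seeing the data), 26 with at most 8% mitochondrial UMIs, 94 with doublets removed, 32 within 1 cluster, 93 after thinning, 28 without cells with dendritic cell genes (added after seeing the data) and 18 without cells of other lineage genes. Against Il12b- Il1a+ cells, 21 genes were called, and the same settings gave 75, 35, 52, 11, 33, 22, 61, 7 and 12, and 4 with only Il1a+ members. Without the replicate block both counts were 0. Leaving out each mouse gave 0 to 413 and 0 to 218 calls. The called genes that were tested kept their sign in these fits, but many were no longer called: 24 of 58 and 10 of 21 stayed called with at most 8% mitochondrial UMIs, 32 and 10 after thinning, 8 and 3 within 1 cluster, 26 and 7 without dendritic cell genes, 14 and 8 without other lineage genes, and 4 of 21 with Il1a+ members. Thinning moved the share of calls that were higher to 68.8% and 49.2%, against 77.6% and 90.5%, leaving out the filter to 59.6% and 68.6%, and 1 cluster to 40.6% and 36.4%. Leaving out the filter shifted the median log2 of all genes to -0.11 and -0.08. Fewer genes were tested after thinning and within 1 cluster. For the other settings the cause was not tested.

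Signs turned for genes that were not called. Against Il12b- cells, Il6 was -0.54 to 0.0979 when each mouse was left out. Itgam was 0.0047 with DESeq2 size factors, 0.00615 with DESeq2's Wald test, 0.00278 with the older estimation, 0.00474 with at least 2 Il12b UMIs, 0.00519 with up to 25% mitochondrial UMIs, 0.033 with up to 8% and 0.00202 without cells with dendritic cell genes, and -0.10 to 0.044 when each mouse was left out. Adgre1 was 0.12 in 1 cluster and 0.0527 after thinning. Against Il12b- Il1a+ cells, Il10 was -0.0234 with at least 2 Il12b UMIs, -0.000266 in 1 cluster, -0.0334 after thinning and -0.094 without cells with dendritic cell genes, and -0.1 to 0.24 when each mouse was left out. Ptprc was -0.0102 without the filter. Itgam was -0.0332 without the filter, -0.00793 without the block, -0.00842 with doublets removed, -0.00108 with Il1a+ members, -0.37 in 1 cluster, -0.13 after thinning and -0.0243 without cells with other lineage genes, and -0.0935 to 0.0431 when each mouse was left out. Adgre1 was 0.11 in 1 cluster and 0.0735 after thinning.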
